A study of Homo sapiens with 12 samples.

Results

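The genes described here are those of cholesterol and fatty acid synthesis. They were followed in HuH-7 cells, a human hepatoma line, that carried a V5-tagged HuR. The list held 33 gene symbols, and 32 of them were matched to an Ensembl identifier among the 57773 identifiers of the count tables. All 32 passed the filter on low counts. They fell into a sterol branch of 18 genes, a fatty acid branch of 8 genes and a set of 6 genes for control and transport. ACACA, the first committed enzyme of fatty acid synthesis, was listed but is not analysed here. The study sequenced 4 groups of 3 libraries. Mutant RIP was RNA recovered by precipitating the V5 tag (RNA immunoprecipitation, RIP) from cells that stably overexpressed HuR K120/182R, in which a pair of lysines that can carry the SUMO modifier are replaced by arginines. WT RIP was the same from cells that overexpressed wild-type (WT) HuR. Mutant input and WT input were the total RNA of those 2 lines. HuR, an RNA-binding protein, is the product of ELAVL1. The labels name no drug, although the headers of all 12 count tables carry the word DMSO. They give no parental line and no clone number, so the substitutions and any other difference between the lines cannot be told apart. They also do not say that replicates were grown separately, so a p-value here reflects only how much these libraries vary, and that variation may be technical.

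Cells make cholesterol from acetyl-CoA by way of mevalonate, isoprenoid units, squalene and lanosterol, and make fatty acids from the same acetyl-CoA. Liver cells are a main site of both. The transcription factors SREBP-1 and SREBP-2, encoded by SREBF1 and SREBF2, are held in the endoplasmic reticulum with the sterol sensor SCAP by the INSIG proteins when sterol is plentiful. When sterol falls, they are carried to the Golgi, cut and sent to the nucleus, where they turn on many genes of both branches. HuR binds AU-rich and U-rich stretches of mRNAs, mostly in 3' untranslated regions (UTRs), and is known for stabilising some of them.

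The libraries held 31774994 to 73149117 counts in genes. Levels are in CPM, library-scaled counts, with TMM (trimmed mean of M values) factors. Fold changes are log2 values, and the number after the ± sign is their standard error (SE) in the fit. Calls were made with edgeR's quasi-likelihood test where the adjusted p was under 0.05. ELAVL1 averaged 27.2 ± 3.73 CPM in mutant RIP, 34.5 ± 3.03 CPM in WT RIP, 48.3 ± 4.18 CPM in mutant input and 58.2 ± 5.32 CPM in WT input (SD, n = 3 each), and the test was passed by neither difference between the lines (adjusted p = 0.0561 in the precipitates and 0.140 in the inputs). Because the endogenous and the tagged transcript are counted together, this does not check the labels. The 8 hepatocyte and hepatoma markers were all expressed. Their summed level lay between 3398 and 3899.8 CPM in mutant RIP, between 5537 and 5877 CPM in WT RIP, between 8169 and 9232 CPM in mutant input and between 10502 and 12539 CPM in WT input, most of it from AFP. Of the markers of other cell types, the 4 immune ones summed to 8.63 to 11.4 CPM in mutant RIP, 7.51 to 8.53 CPM in WT RIP, 12.2 to 13.4 CPM in mutant input and 7.56 to 10.5 CPM in WT input. PTPRC, which defines leukocytes, averaged at most 0.556 CPM in any group, LYZ 3.82 to 7.40 CPM and CD68 1.74 to 4.33 CPM, and CD3E averaged 2.19 CPM in mutant RIP, 2.28 CPM in WT RIP, 0.341 CPM in mutant input and 0.269 CPM in WT input. VWF, CDH5, COL1A1, DCN and KRT7 each averaged under 0.1 CPM, while EPCAM averaged 20.1 to 32.8 CPM. PDGFRB, a further fibroblast and stellate marker, averaged 0.397 CPM in mutant RIP, 0.467 CPM in WT RIP, 0.876 CPM in mutant input and 1.10 CPM in WT input. PECAM1, also planned as an endothelial marker, has no value here. The part of these marker differences in the results below was not tested. In total RNA, fewer cells that express a gene and less RNA per cell cannot be told apart. Scaling by total library size in place of TMM moved the median of all genes to −0.43 between the inputs, −0.17 between the precipitates, 1.38 in the mutant enrichment over input and 1.12 in the WT enrichment. The values below are thus relative to the typical gene.

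The first comparison asked how the total RNA of the mutant line differed from that of the WT line. Of the 32 members, 23 fell and 1 rose in mutant input. Over all 22984 genes tested, 10% were called lower and 7.47% higher. The median change of the members was −0.86, against 0.00 for all genes. In 25 members the 3 mutant inputs lay wholly on one side of the 3 WT inputs, which was the case for 33.7% of all genes. Together the members held 0.696% to 0.724% of the counts in protein-coding genes in mutant inputs, against 1.13% to 1.20% in WT inputs. In the sterol branch 16 of 18 genes fell, with a median of −0.94. In the fatty acid branch 5 of 8 fell, with a median of −0.55. In the control and transport set 2 of 6 fell and 1 rose. Scaling by total library size called 27 members lower and none higher between the inputs. It also moved the median of all genes to −0.43 and called 7208 of the 22984 genes in either direction, against 4017 with TMM factors. Leaving out any 1 of the 12 libraries left 22 to 24 members lower.

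**Figure D1:**
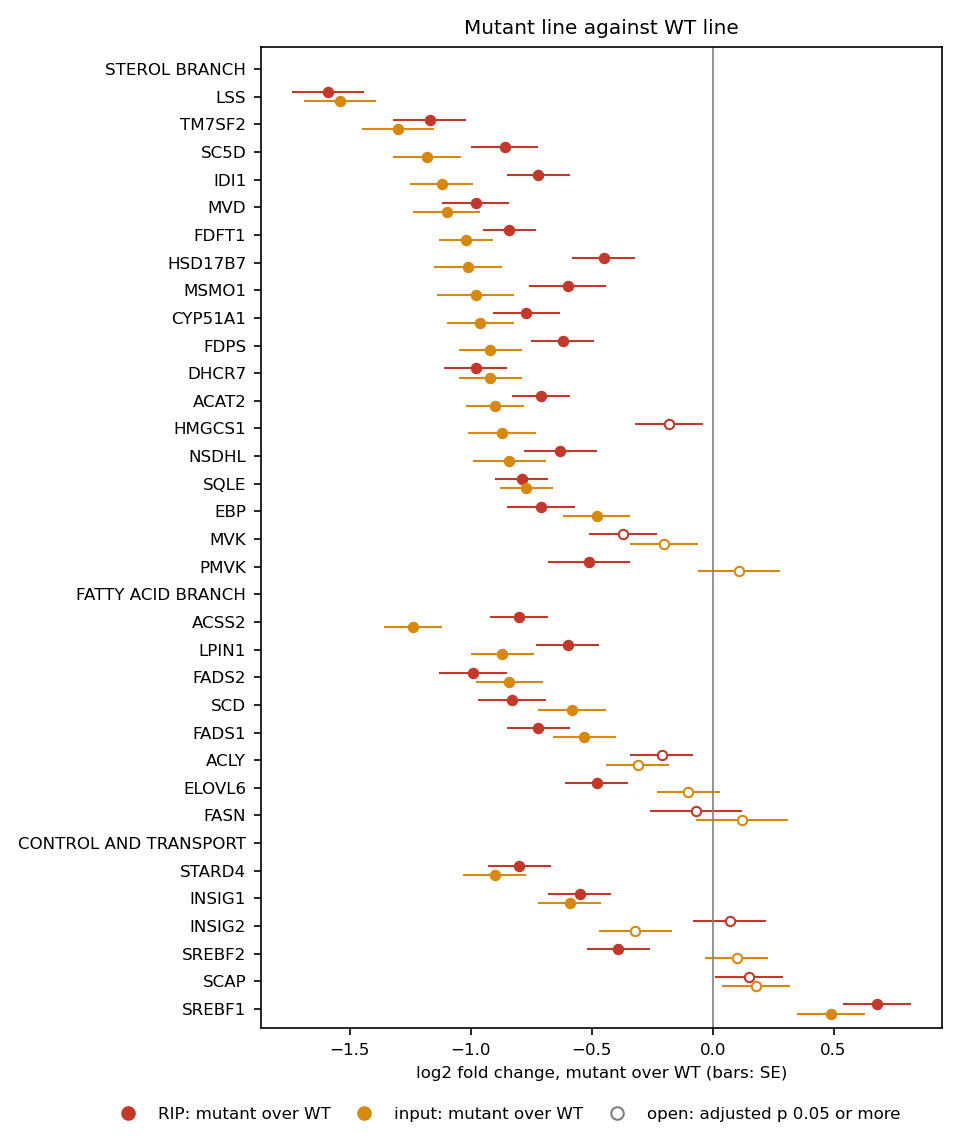
Log2 fold change of each of the 32 members, mutant over WT, in the precipitates (red) and in the inputs (orange); bars are the SE of the fit and open points did not pass the test. Most points of the sterol branch lie left of 0 in both kinds of library, LSS is lowest at −1.59 and −1.54, and SREBF1 is the 1 filled point on the right, which lost its call when libraries were scaled by total library size.

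In the mevalonate part of the sterol branch, which makes the isoprenoid units, 5 of 7 genes fell in mutant input. IDI1, which interconverts the isopentenyl and dimethylallyl units, had 56.4, 71.2 and 67.7 CPM in mutant inputs, against 151, 151 and 122 CPM in WT inputs. The groups did not overlap, and the change was −1.12 ± 0.13 (adjusted p = 1.39e-06). MVD, which decarboxylates mevalonate diphosphate, had 45.1, 34.8 and 35.0 CPM in mutant inputs, against 78.4, 76.8 and 90.3 CPM in WT inputs. Again every mutant library lay below every WT library (−1.10 ± 0.14, adjusted p = 7.44e-06). ACAT2, the cytosolic thiolase that joins 2 acetyl-CoA, changed by −0.90, HMGCS1, the HMG-CoA synthase, by −0.87, and FDPS, the farnesyl diphosphate synthase, by −0.92. The kinases that act in sequence on mevalonate did not pass the test: MVK was at −0.20 ± 0.14 and PMVK at 0.11 ± 0.17, and the libraries of the lines overlapped for both.

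All 11 genes that lead from farnesyl diphosphate to cholesterol fell in mutant input, with a median of −0.98. FDFT1, which makes squalene, had 66.0, 64.8 and 61.6 CPM in mutant inputs, against 135, 127 and 129 CPM in WT inputs. Its WT levels were about 2.03 times the mutant ones with a narrow spread in both groups (−1.02 ± 0.11, adjusted p = 6.55e-07). LSS, which closes squalene epoxide into lanosterol, had 20.1, 13.3 and 15.7 CPM in mutant inputs, against 44.7, 43.0 and 55.3 CPM in WT inputs. It was the member with the largest fall (−1.54 ± 0.15, adjusted p = 1.40e-07), which placed it in the lowest 2.38% of all genes tested. TM7SF2, a sterol C14 reductase, had 22.1, 20.2 and 20.0 CPM in mutant inputs, against 48.6, 50.6 and 54.7 CPM in WT inputs. The change was −1.30 ± 0.15 (adjusted p = 1.31e-06), with no overlap. SC5D, the sterol C5 desaturase, had 19.3, 21.2 and 24.8 CPM in mutant inputs, against 55.3, 54.5 and 38.4 CPM in WT inputs. The third WT input was lower than the other WT inputs but still above all mutant inputs (−1.18 ± 0.14, adjusted p = 3.67e-06). CYP51A1, the lanosterol demethylase, was 1 of 3 members with the highest level per length (77.6 CPM per kilobase of exon in mutant input and 151 in WT input), and changed by −0.96. The remaining steps changed by −1.01 (HSD17B7, a 3-ketosteroid reductase), −0.98 (MSMO1, the C4 methyl oxidase), −0.92 (DHCR7, which reduces the last double bond on 1 route), −0.84 (NSDHL, which removes the C4 carboxyl group) and −0.77 (SQLE, the squalene epoxidase). EBP, the isomerase that moves a double bond in the sterol ring, fell least of the 11 (−0.48 ± 0.14, adjusted p = 0.0149), and its call was lost without the third mutant input (−0.41, adjusted p = 0.0764).

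The fatty acid branch was divided in mutant input. ACSS2, which makes acetyl-CoA from acetate, had 16.0, 13.3 and 13.6 CPM in mutant inputs, against 32.2, 31.5 and 37.3 CPM in WT inputs. That was a change of −1.24 ± 0.12 with no overlap (adjusted p = 1.40e-07). LPIN1, a phosphatidate phosphatase of glycerolipid synthesis, had 7.33, 7.12 and 7.53 CPM in mutant inputs, against 13.6, 12.7 and 14 CPM in WT inputs. It fell by 0.87 on the log2 scale (SE 0.13, adjusted p = 6.25e-05), and it had the lowest level per length of all members, 0.618 CPM per kilobase in mutant input and 1.13 in WT input. The desaturases fell too: FADS2 by 0.84, SCD by 0.58 and FADS1 by 0.53, and the FADS1 call was lost without the first WT input (−0.46, adjusted p = 0.0635). SCD, which makes oleate, had 503, 539 and 557 CPM in mutant inputs, against 845, 810.1 and 726 CPM in WT inputs. FASN, the fatty acid synthase itself, had 116, 94.5 and 78.2 CPM in mutant inputs, against 77.5, 81.3 and 106 CPM in WT inputs. The ranges overlapped over most of their length and the difference was 0.12 ± 0.19 (adjusted p = 0.710). ELOVL6, which elongates palmitate, was at −0.10 ± 0.13, and ACLY, which makes cytosolic acetyl-CoA from citrate, was at −0.31 ± 0.13 (adjusted p = 0.0978), although its mutant inputs all lay below its WT inputs.

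Among the control and transport genes, STARD4, a cytosolic sterol carrier, had 16.7, 19.4 and 20.6 CPM in mutant inputs, against 38.9, 37.6 and 29.0 CPM in WT inputs (−0.90 ± 0.13, adjusted p = 4.56e-05). INSIG1, the inducible of the retention proteins, changed by −0.59 ± 0.13 (adjusted p = 0.00323). Both had no overlap between the lines. SREBF1 had 46.4, 37.3 and 35.9 CPM in mutant inputs, against 23.6, 28.8 and 32.6 CPM in WT inputs, and rose by 0.49 ± 0.14 (adjusted p = 0.0163). That call rested on single libraries and on the scaling: it was lost without the first WT input (0.39, adjusted p = 0.107), without the first mutant input (0.37, adjusted p = 0.0761) and with total library size (0.07, adjusted p = 0.815). The other 3 did not pass the test: INSIG2 was at −0.32 ± 0.15, SREBF2 at 0.10 ± 0.13 and SCAP at 0.18 ± 0.14. For SREBF2 and SCAP the value was negative with total library size (−0.31 and −0.25), again without passing the test.

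The precipitates of the lines, compared directly, answer which member RNAs were less or more abundant among the RNAs recovered with the mutant. They share no library with the inputs. In mutant RIP 25 of 32 members fell and 1 rose, where 9.76% of all genes were called lower and 9.87% higher. The median was −0.67, against 0.01 for all genes, and 28 members had no overlap between the lines, against 35.6% of all genes. The sterol branch again had 16 of 18 genes lower (median −0.71), including all 11 from squalene synthesis onward (median −0.79), and the fatty acid branch 6 of 8 (median −0.66). LSS had 8.31, 8.29 and 6.65 CPM in mutant RIP, against 20.1, 26.3 and 24.0 CPM in WT RIP (−1.59 ± 0.15, adjusted p = 1.06e-07). Each mutant library lay far below each WT library. TM7SF2 had 8.03, 9.40 and 6.28 CPM in mutant RIP, against 14.9, 22.2 and 16.2 CPM in WT RIP (−1.17 ± 0.15, adjusted p = 5.66e-06). FADS2, the Δ6 desaturase of polyunsaturated fatty acids, had 163, 161 and 133 CPM in mutant RIP, against 276, 291 and 339.6 CPM in WT RIP (−0.99 ± 0.14, adjusted p = 2.00e-05). For both, every mutant library lay below every WT library. DHCR7 and MVD changed by −0.98 each, SC5D by −0.86, FDFT1 by −0.84, SCD by −0.83, and ACSS2 and STARD4 by −0.80 each.

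Of the 7 mevalonate genes, HMGCS1 and MVK were not called between the precipitates. HMGCS1 had 397, 407 and 432 CPM in mutant RIP, against 448, 455 and 500.3 CPM in WT RIP, and the difference of −0.18 ± 0.14 was not called (adjusted p = 0.390). MVK was at −0.37 ± 0.14 (adjusted p = 0.0692). In the inputs HMGCS1 had 128, 168 and 163 CPM in the mutant line, against 308, 272 and 263 CPM in the WT line (−0.87 ± 0.14, adjusted p = 0.000101). It was the 1 member called lower in the inputs and not in the precipitates. The reverse held for PMVK (−0.51 ± 0.17, adjusted p = 0.0319), ELOVL6 (−0.48 ± 0.13, adjusted p = 0.0115) and SREBF2 (−0.39 ± 0.13, adjusted p = 0.0407) in mutant RIP. The PMVK and SREBF2 calls were lost with DESeq2 size factors (adjusted p = 0.0544 and 0.0663). They were also lost in most fits that left out 1 RIP library, as was that of HSD17B7 (adjusted p of 0.0526 to 0.0941 where it was lost). Without the first WT RIP library ELOVL6 lost its call (−0.34, adjusted p = 0.109), and without the second mutant RIP library MSMO1 did (−0.53, adjusted p = 0.0544).

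**Figure D2:**
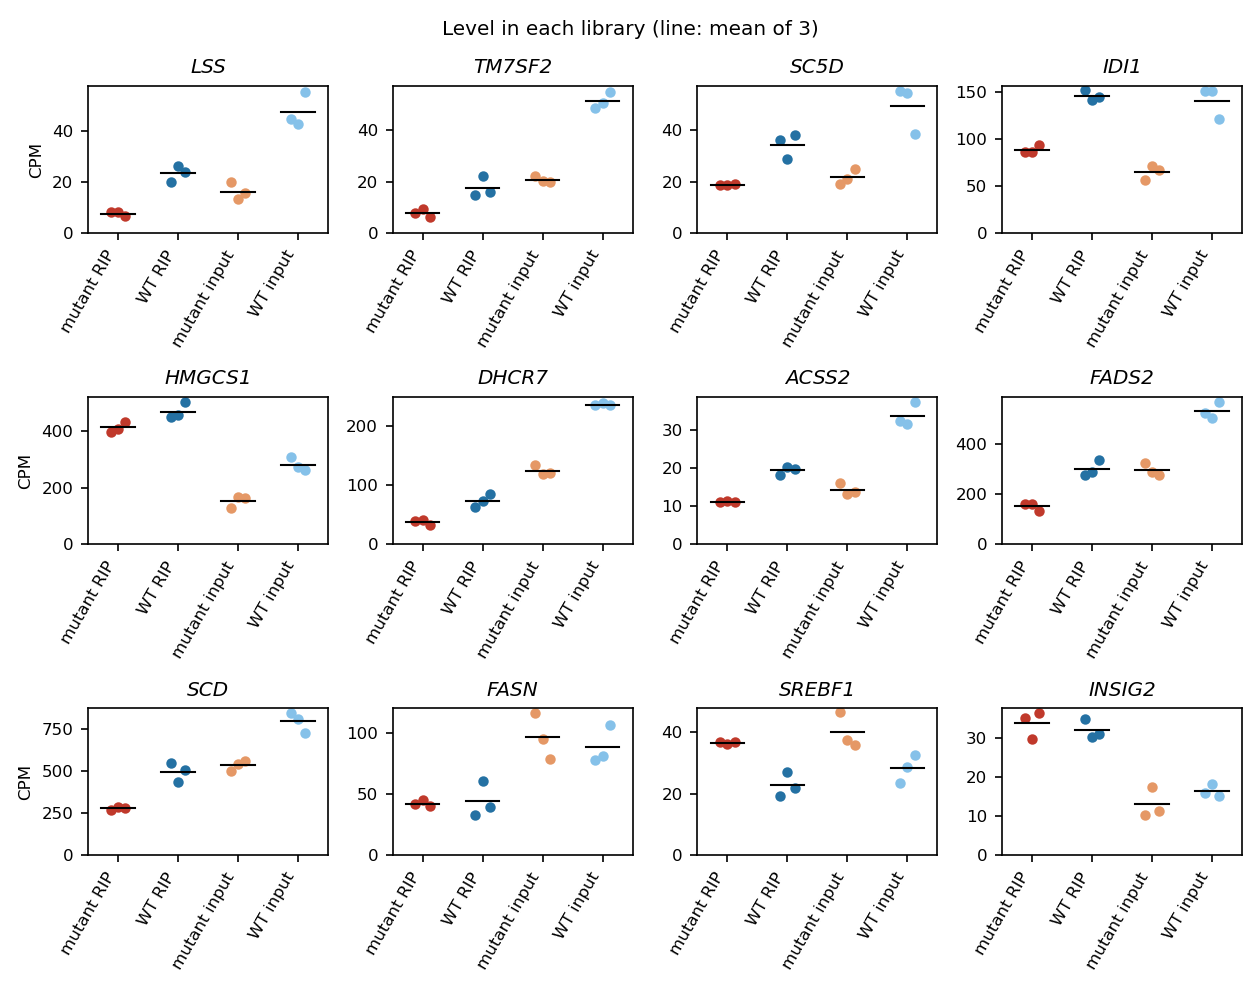
Level in CPM of 12 members in each of the 12 libraries, as points by group with the mean of 3 as a line. LSS, TM7SF2, SC5D, IDI1, ACSS2, DHCR7, FADS2 and SCD are lower in mutant than in WT libraries of the same kind, HMGCS1 is above input in both precipitates, FASN overlaps between the lines, and SREBF1 is higher in the mutant libraries.

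Of the 32 members, 22 were called lower both in the precipitates and in the inputs, namely 15 of the sterol branch, 5 of the fatty acid branch and 2 of control and transport. SREBF1 was called higher in both, with 36.9, 36 and 36.6 CPM in mutant RIP, against 19.2, 27.1 and 22.0 CPM in WT RIP (0.68 ± 0.14, adjusted p = 0.00110, and 0.51 with an adjusted p of 0.0684 when scaled by total library size). No member was called in opposite directions, and MVK, ACLY, FASN, SCAP and INSIG2 were called in neither. As a description over the 32 genes, which share libraries and are not replicates, Pearson's r between the 2 sets of fold changes was 0.80. The value was more negative in the inputs than in the precipitates for 19 of the 32.

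Taken as the mean log2 CPM over its genes, the sterol branch lay at 5.30, 5.33 and 5.16 in mutant RIP, against 5.94, 6.06 and 6.04 in WT RIP. In the inputs it lay at 5.60, 5.57 and 5.54 in the mutant line, against 6.48, 6.47 and 6.45 in the WT line. The fatty acid branch lay at 5.52, 5.54 and 5.44 in mutant RIP and 6.03, 6.11 and 6.08 in WT RIP, and at 6.26, 6.22 and 6.16 in mutant input and 6.76, 6.70 and 6.81 in WT input. Both branches were thus lower in every mutant library than in every WT library of the same kind. The distance between the branches (sterol minus fatty acid) was −0.66 to −0.62 in mutant inputs and −0.36 to −0.23 in WT inputs, and these ranges did not overlap. It was −0.28 to −0.20 in mutant RIP and −0.08 to −0.05 in WT RIP. The medians of the fitted changes differed by −0.39 between the branches in the inputs and by −0.06 in the precipitates.

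**Figure D3:**
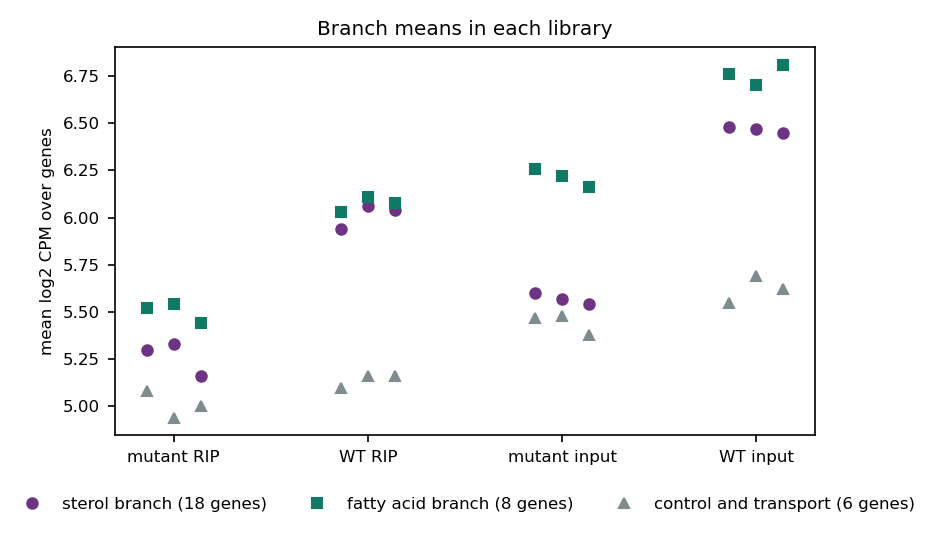
Mean log2 CPM of the sterol branch (18 genes), the fatty acid branch (8 genes) and the control and transport genes (6 genes) in each library, by group. The sterol points of the mutant inputs, 5.54 to 5.60, lie furthest below the fatty acid points of the same libraries, and in WT RIP the branches nearly meet.

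Transcript GC content moved with the change between the inputs over all coding genes. With coding genes divided by GC content into 3 classes of like size, the GC-poor class (29.4% to 43.4% GC) had a median of −0.21, the middle class −0.03 and the GC-rich class (53.5% to 76.0% GC) 0.13. The members in those classes had medians of −0.93 (8 genes), −0.81 (10 genes) and −0.48 (13 genes). In the precipitates the coding genes had medians of 0.00, −0.03 and −0.05, and the members −0.66, −0.67 and −0.71. With the GC trend of each library removed, the difference between branch medians in the inputs was −0.34, and MVK and ACLY were called lower as well (−0.32 and −0.37, adjusted p = 0.0167 and 0.0101).

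Promoter sequence was looked at because most members moved together. RefSeq promoters on GRCh38.p14, from 250 bases before to 50 bases after the gene start, were found for 29 of the 33 listed genes, ACACA among them. A pair of motifs was searched on both strands: CCAAT, the box bound by the factor NF-Y, which is a known partner of SREBP at sterol genes, and CACNCCAC, a core of the sterol regulatory element, with its longer form TCACNCCAC, which contains it. CCAAT was found in 18 of the 29 (62.1%), against 35.7% of all 27305 promoters. It was in 15 of the 20 members called lower in mutant input, in 3 of the 7 not called and not in SREBF1. The core CACNCCAC was found in SC5D, SCD, SREBF2 and INSIG1 (13.8%), against 5.74% of all promoters, and its longer form in SREBF2 alone (3.45%), against 1.15%. Of the members not called, MVK, ACLY and SREBF2 have CCAAT, and MVK has 5 matches. IDI1, CYP51A1, FADS1, FADS2 and LPIN1, which were called lower, have none. A match is a description of letters and not a bound site. The members and the motifs were chosen with results of these data known, so these shares and the split by call are no test. The 27305 promoters also include genes that were not tested here, and most members called lower belong to the sterol branch. The promoters of the pair of genes that fell most, LSS (chr21:46228725-46229024, minus strand) and TM7SF2 (chr11:65111622-65111921, plus strand), are shown with that of NSDHL (chrX:152830813-152831112, plus strand), which has 5 matches to CCAAT, of which one pair overlaps. That of SREBF1 (chr17:17836937-17837236, minus strand), the member that rose, has none, and that of SREBF2 (chr22:41832855-41833154, plus strand) has both kinds. Coordinates are on GRCh38.p14, letters run 5′ to 3′ on the strand of the gene, and capitals mark CCAAT or its complement ATTGG and the core or its complement.
LSS: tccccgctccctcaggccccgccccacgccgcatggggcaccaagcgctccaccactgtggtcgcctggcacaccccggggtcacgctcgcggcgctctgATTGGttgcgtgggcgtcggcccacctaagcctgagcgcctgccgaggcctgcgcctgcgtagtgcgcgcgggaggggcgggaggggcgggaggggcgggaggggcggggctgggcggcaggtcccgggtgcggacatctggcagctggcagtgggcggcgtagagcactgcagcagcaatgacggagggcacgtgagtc
TM7SF2: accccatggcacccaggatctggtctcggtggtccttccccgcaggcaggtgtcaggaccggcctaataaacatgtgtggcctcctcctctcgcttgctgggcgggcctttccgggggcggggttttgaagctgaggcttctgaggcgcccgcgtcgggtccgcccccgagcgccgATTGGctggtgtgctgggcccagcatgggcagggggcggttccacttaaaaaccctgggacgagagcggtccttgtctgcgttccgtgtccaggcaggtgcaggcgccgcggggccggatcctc
NSDHL: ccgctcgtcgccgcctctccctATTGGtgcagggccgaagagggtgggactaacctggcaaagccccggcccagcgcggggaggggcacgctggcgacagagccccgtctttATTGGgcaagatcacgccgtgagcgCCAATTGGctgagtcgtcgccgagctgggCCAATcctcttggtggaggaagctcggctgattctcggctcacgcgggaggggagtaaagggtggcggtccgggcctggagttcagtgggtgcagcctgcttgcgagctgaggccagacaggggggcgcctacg
SREBF1: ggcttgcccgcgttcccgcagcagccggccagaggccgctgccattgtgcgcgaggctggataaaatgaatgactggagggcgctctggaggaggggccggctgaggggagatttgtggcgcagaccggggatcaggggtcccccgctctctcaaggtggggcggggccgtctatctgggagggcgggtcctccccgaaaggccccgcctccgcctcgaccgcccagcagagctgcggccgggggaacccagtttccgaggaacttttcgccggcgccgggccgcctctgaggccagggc
SREBF2: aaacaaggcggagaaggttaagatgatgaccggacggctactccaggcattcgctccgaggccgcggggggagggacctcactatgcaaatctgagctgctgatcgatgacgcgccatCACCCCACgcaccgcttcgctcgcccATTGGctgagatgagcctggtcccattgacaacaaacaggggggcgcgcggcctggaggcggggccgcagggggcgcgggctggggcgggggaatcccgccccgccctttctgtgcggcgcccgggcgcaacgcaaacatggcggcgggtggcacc

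Recovery with HuR was measured as each precipitate over the input of the same line, relative to the typical gene. No mock precipitation entered this comparison. The RIP libraries also started from less RNA (16 to 77 ng, against 250 ng for each input), and effects of that cannot be told apart from precipitation. In the mutant line 5 members were higher in RIP and 16 lower, where 29.0% of all genes were called higher and 28% lower. In the WT line 3 were higher and 20 lower, where 25.6% of all genes were called higher and 25.4% lower. The member medians were −0.33 in the mutant line and −0.50 in the WT line, against 0.07 and 0.06 for all genes and −0.11 and −0.13 for coding genes. In the mutant line 23 members, and in the WT line 26, had no overlap between RIP and input, against 63.2% and 59.2% of all genes. These directions depend on the scaling: with total library size 22 members were called higher and 3 lower in the mutant line, and 18 higher and 4 lower in the WT line. With that scaling 17715 of all 22984 genes were called in the mutant line and 16638 in the WT line, in either direction.

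**Figure D4:**
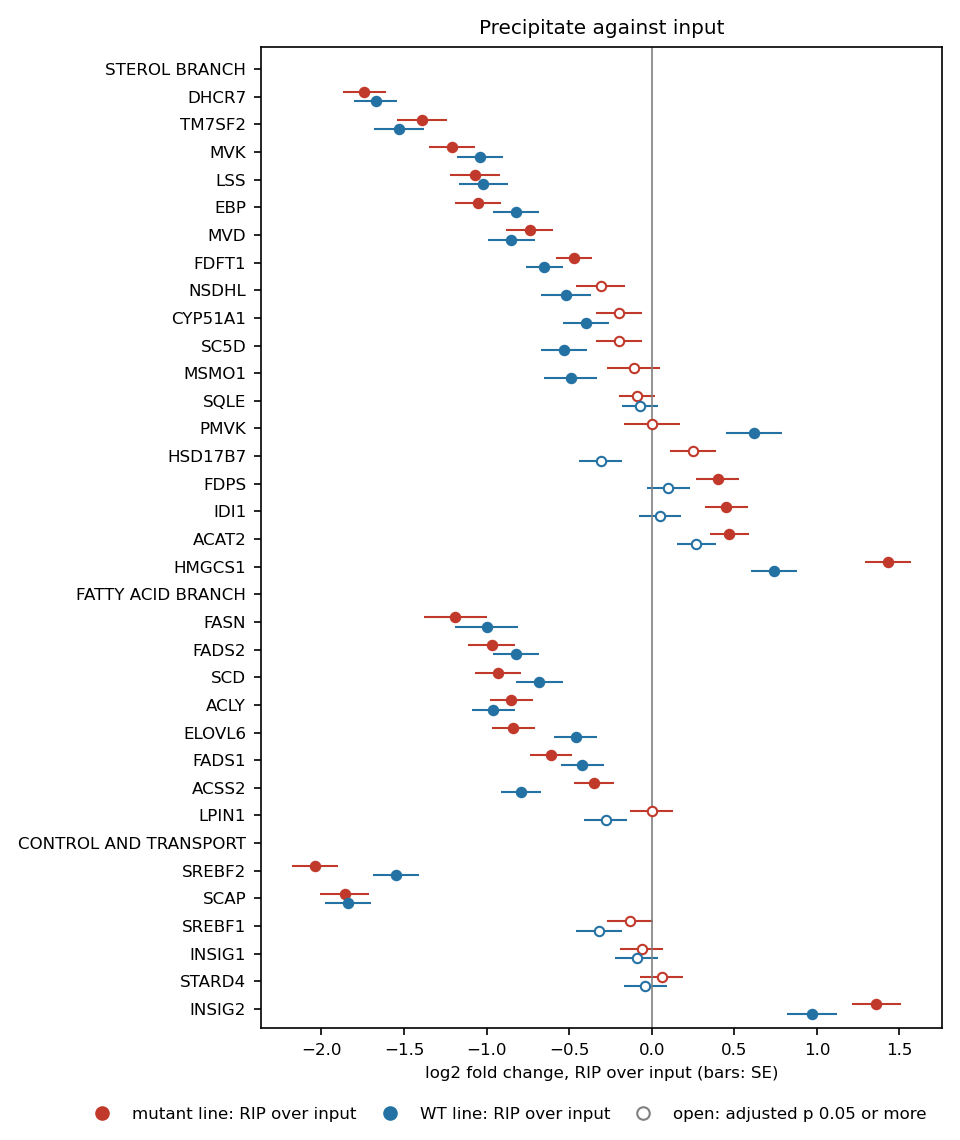
Log2 fold change of each of the 32 members, RIP over input, in the mutant line (red) and in the WT line (blue); bars are the SE of the fit and open points did not pass the test. HMGCS1 and INSIG2 lie furthest right and SREBF2, SCAP, DHCR7 and TM7SF2 furthest left in both lines; with total library size all points shift right, and the median of all genes then lies at 1.38 in the mutant line and 1.12 in the WT line.

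The members with the highest recovery were HMGCS1 and INSIG2. With the GC trend of each library removed they were still called higher in both lines (HMGCS1 0.88 in the mutant line and 0.41 in the WT line, INSIG2 0.73 and 0.59), but SREBF1 (0.99) was then highest in the mutant line and PMVK (1.27) in the WT line. HMGCS1 had 397, 407 and 432 CPM in mutant RIP, against 128, 168 and 163 CPM in mutant input (1.43 ± 0.14, adjusted p = 3.73e-09). In the WT line it had 448, 455 and 500.3 CPM in RIP, against 308, 272 and 263 CPM in input (0.74 ± 0.14, adjusted p = 8.18e-05). It lay above input in every library of both lines, at percentile 84.9 of all genes in the mutant line and percentile 74.3 in the WT line. INSIG2, the constitutive retention protein, had 35.1, 29.7 and 36.3 CPM in mutant RIP, against 10.4, 17.4 and 11.4 CPM in mutant input (1.36 ± 0.15, adjusted p = 3.31e-08). In the WT line it had 34.8, 30.3 and 31.0 CPM in RIP, against 15.9, 18.1 and 15.1 CPM in input (0.97 ± 0.15, adjusted p = 6.93e-06). RIP and input did not overlap in either line. Of the other mevalonate genes, ACAT2 (0.47), IDI1 (0.45) and FDPS (0.40) were called higher in the mutant line and were at 0.27, 0.05 and 0.10 in the WT line, where they did not pass the test. For each of them this contrast depended on the settings. With the GC trend removed IDI1 was not called in the mutant line (−0.14, adjusted p = 0.233). It was then called lower in the WT line (−0.29, adjusted p = 0.0122). With total library size it was called higher in the WT line as well (1.11, adjusted p = 7.04e-08). ACAT2 was called in the WT line as well with DESeq2 size factors, the DESeq2 test, TMM factors of coding genes and the 50-count filter (0.30 to 0.41, adjusted p of 0.00467 to 0.0348), and lost its call in the mutant line with the GC trend removed (0.20, adjusted p = 0.103). Removing the GC trend gave FDPS a call in the WT line (0.44, adjusted p = 0.000606), and total library size gave ACAT2 and FDPS one. PMVK was called higher in the WT line (0.62 ± 0.17, adjusted p = 0.00314) and was at 0.00 ± 0.17 in the mutant line, where removing the GC trend (0.81, adjusted p = 3.52e-06) or scaling by total library size (1.30, adjusted p = 4.77e-09) gave a call too. The FDPS call was lost without the second mutant RIP library (0.31, adjusted p = 0.0640).

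At the other end, SREBF2 had 24.9, 21.6 and 18.9 CPM in mutant RIP, against 107, 80.0 and 82.3 CPM in mutant input (−2.04 ± 0.14, adjusted p = 5.99e-12). In the WT line it had 28.2, 28 and 29.7 CPM in RIP, against 74.1, 82.9 and 93.7 CPM in input (−1.55 ± 0.14, adjusted p = 9.81e-10). SCAP had 23.3, 21.7 and 19.5 CPM in mutant RIP, against 92.1, 71.6 and 71.6 CPM in mutant input, and 15.5, 23.3 and 19.3 CPM in WT RIP, against 63.4, 67.6 and 77.4 CPM in WT input. Its changes were −1.86 and −1.84. The precipitates of both genes lay far below their inputs, and both stayed lower with total library size (SREBF2 −0.73 and −0.48, SCAP −0.56 and −0.80). DHCR7 had 39.0, 40.8 and 32.0 CPM in mutant RIP, against 133, 119 and 121 CPM in mutant input (−1.74), and 62.9, 73.9 and 84.5 CPM in WT RIP, against 234, 238 and 235 CPM in WT input (−1.67). TM7SF2 (−1.39 in the mutant line and −1.53 in the WT line), MVK (−1.21 and −1.04), LSS (−1.07 and −1.02) and EBP (−1.05 and −0.82) were also lower in both. In the fatty acid branch 7 of 8 genes were lower in each line, from −1.19 (FASN) to −0.35 (ACSS2) in the mutant line and from −1.0 (FASN) to −0.42 (FADS1) in the WT line, and LPIN1 did not pass the test (0.00 and −0.28). With the GC trend removed FASN and FADS2 lost their calls in both lines (FADS2 −0.18 in the mutant line and −0.17 in the WT line) and ACSS2 in the mutant line (0.00). The ACSS2 call in the mutant line was also lost with TMM factors of coding genes, with no filter and without the first mutant input (adjusted p = 0.128, 0.0644 and 0.0860). In the WT line the FADS1 call was lost with TMM factors of coding genes and without the first WT input (adjusted p = 0.0726 and 0.0864), and that of ELOVL6 without the first WT input (adjusted p = 0.0631). With total library size FASN, MVK, LSS, EBP and all 7 of those fatty acid genes were above 0.

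Stretches of U and AU were marked in the 3' UTRs because HuR is known to bind them. For each gene the 30-base window with most bases in the pentamers ATTTA or TTTTT was taken from GENCODE release 44 placed on GRCh37, the build of the files. They are shown for HMGCS1 (chr5:43290332-43290361, minus strand), INSIG2 (chr2:118866172-118866201, plus strand), called higher over input in both lines, for IDI1 (chr10:1085754-1085783, minus strand), called higher in the mutant line and not called in the WT line, and for members called lower in both, DHCR7 (chr11:71146107-71146136, minus strand) and SREBF2 (chr22:42302329-42302358, plus strand). The IDI1 calls depended on the settings, as given above. Letters are DNA, 5′ to 3′ on the strand of the transcript, and capitals mark the pentamers.
HMGCS1: aTTTTTctggttacTTTTTTaaaaATTTAa
INSIG2: atgaaaTTTTTaaattaaTTTTTTaaaaca
IDI1: cATTTAtaatattgtttctaaTTTTTTTag
DHCR7: cctttggagacaATTTAcctgtattaggag
SREBF2: tggcattaTTTTTTaaTTTTTTaaaaaata
A window was taken only where a UTR held a pentamer, so each of these 5 holds such a stretch by construction. The UTRs of MVK (1548 bases), MVD (585 bases) and TM7SF2 (177 bases), called lower over input in both lines, held neither pentamer. Nor did those of PMVK (389 bases), called higher in the WT line, and FDPS (56 bases), called higher in the mutant line. Every other member held at least a single pentamer, whether called higher, lower or not called. HMGCS1 has 12 ATTTA and 32 TTTTT in a 3' UTR of 3661 bases, and DHCR7 2 and 1 in 964 bases. SREBF2, the least recovered member in the mutant line, has 4 and 9 in 1645 bases.

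Across the 31 members with a 3' UTR of at least 100 bases, Spearman's rho between recovery and ATTTA per kilobase was 0.49 in the mutant line and 0.44 in the WT line, against 0.32 and 0.29 over 13334 coding genes. For TTTTT it was 0.20 and 0.22, against 0.23 and 0.19. For transcript GC content it was −0.66 and −0.65, against −0.54 and −0.46. These are descriptions over genes that share libraries and base composition. In the GC-rich class 11 of 13 members were lower in each line, where 63.3% of coding genes of that class were lower in the mutant line and 57.0% in the WT line. In the GC-poor class 1 of 8 members was lower in the mutant line and 4 of 8 in the WT line, where 13.2% and 15.3% of coding genes of that class were. With the GC trend removed, the recovery of MVD became positive (0.52 in the mutant line and 0.14 in the WT line). FASN was then at 0.07 and −0.03 and IDI1 at −0.14 and −0.29. The part of GC content in the recovery of each gene was not tested beyond this.

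**Figure D5:**
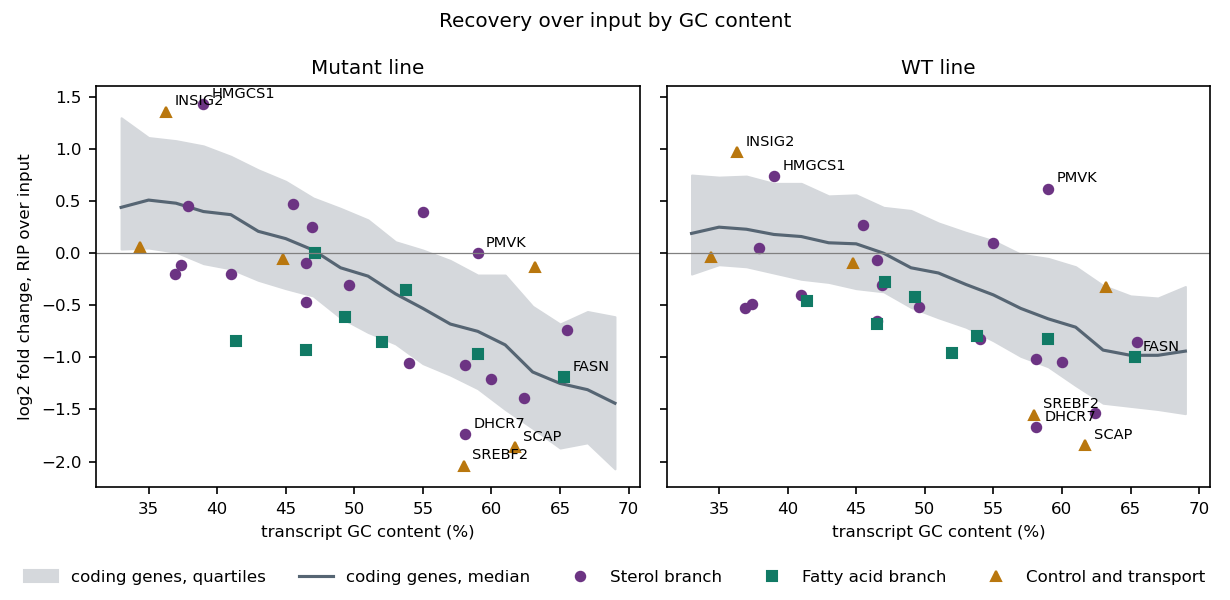
Log2 fold change of RIP over input against transcript GC content (percent) for the members with a GC value, with the median (line) and the quartiles (grey band) of coding genes in bins of GC content, in the mutant line and in the WT line. HMGCS1 and INSIG2 lie above the median of coding genes of like GC content in both lines and DHCR7, SREBF2 and SCAP below it, while FASN lies on it; the axis is relative to the typical gene and would shift up with total library size.

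The difference of the enrichments, mutant minus WT, asked whether recovery changed with the mutant beyond the change in input. No member passed the test in edgeR, where 0.0653% of all genes (15 of 22984) did, all of them higher, a count that ran from 0 to 75 when 1 library was left out. At an unadjusted p under 0.05 there were 6 members, where 13.1% of all genes passed that threshold: HMGCS1 (0.69 ± 0.20, adjusted p = 0.135), HSD17B7 (0.56), ACSS2 (0.44), IDI1 (0.40), SREBF2 (−0.50) and PMVK (−0.62). DESeq2 called 1 member, HMGCS1 (0.69, adjusted p = 0.00456). The 95% intervals, taken from the SE with the 8 residual degrees of freedom alone, ran from 0.24 to 1.14 for HMGCS1, from −0.53 to 0.44 for LSS and from −0.80 to 0.42 for FASN. The test itself used more degrees of freedom, so these intervals are wider than its p-values imply. Genes changed by 1 log2 unit in simulated data were found in 35.0% of cases in this comparison and those changed by 0.5 in 1%, against 84.0% and 8% between the precipitates. Only 200 of 22003 genes were changed there, while 4512 genes were called between the real precipitates. The shares between the simulated precipitates therefore do not carry over to the real ones. Apart from the 200 genes, simulated precipitates and inputs also had the same mean levels, with a spread that was set and not measured. The 35.0% and 1% are thus not the shares that would be found in the real difference of enrichments. The median over the sterol branch was 0.19 and over the fatty acid branch −0.17, against 0.00 for all genes. With the GC trend of each library removed, the sterol minus fatty acid median fell from 0.36 to 0.09.

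Other genes of the same pathways, 55 tested, are given beside the members as counts, without a test of the difference. Between the inputs 17 were lower and 4 higher in the mutant line (median −0.13; 30 and 1 with total library size), and between the precipitates 9 were lower and 4 higher (median −0.13; 11 and 1). ACSL4 (−0.73 ± 0.12, adjusted p = 9.68e-05) and ACSL3 (−0.68 ± 0.14, adjusted p = 0.00109), which activate fatty acids, were lower in mutant input. SPRING1, which is needed for SREBP activation, was lower in both kinds of library (−0.65 ± 0.13 between the precipitates and −0.68 ± 0.13 between the inputs), and ERG28, a scaffold of sterol C4 demethylation, likewise (−0.84 ± 0.13 and −0.56 ± 0.13). NPC2, a lysosomal sterol carrier, and PGRMC1, a partner of CYP51A1, were at −0.69 each between the precipitates. FAXDC2 was higher (0.72 ± 0.15 and 0.84 ± 0.15). Over input, 10 of these genes were higher and 29 lower in the mutant line, 6 and 27 in the WT line. With total library size these counts turned to 37 higher and 5 lower in the mutant line and 34 and 6 in the WT line. With TMM factors the shares of all genes called are those given for the members. Total library size called 7208 of 22984 genes between the inputs and 3305 between the precipitates, in either direction. It called 17715 in the mutant enrichment and 16638 in the WT enrichment. None of these other pathway genes differed between the enrichments in edgeR (8 of the 55 at an unadjusted p under 0.05, against 13.1% of all genes, and 2 called by DESeq2).

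Some members share exons with another counted gene, and the strand setting of the counting is not given in the sources used here. On the opposite strand, 37.7% of the exon bases of HMGCS1 lie in a long noncoding RNA whose counts were 14.2% of those of HMGCS1. For FDPS the share is 18.6% (RUSC1-AS1, 59.1% of its counts), for ACAT2 17.2% (TCP1, 163%) and for IDI1 15% (IDI2-AS1, 20.6%). FADS1 and FADS2 overlap each other in 4.79% and 4.64% of their exon bases. HSD17B7 has near-copies in named pseudogenes, which held 15.5% of its counts. The values of these genes are uncertain to the extent that reads were split between the partners.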

How the data were processed

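Raw gene-level read counts of 12 stranded total RNA libraries were deposited by the authors, 1 table per library and not pooled. Per the submitters' processing notes, bcl2fastq 2.20.0.422, cutadapt, STAR 2.4.0j and featureCounts 1.6.4 were used with hg19; the annotation release and the strand setting are not given in the sources used here. Of 57773 identifiers, 55538 were matched to GENCODE release 44 on GRCh37, so reads counted under another gene model are not seen. The filterByExpr function (at least 10 counts, total of at least 15) retained 22984 genes. All libraries entered 1 robust quasi-likelihood fit with 4 group coefficients and 8 residual degrees of freedom (R 4.3.3, edgeR 4.0.16, limma 3.58.1), with TMM factors of 1.32 to 1.78 in precipitates and 0.526 to 0.909 in inputs, a common biological coefficient of variation of 0.157 and Benjamini-Hochberg adjustment over all genes. SE were derived from the F statistic. Python 3.11.15 with numpy 2.4.6, pandas 2.3.3 and matplotlib 3.10.9 was used for sequences and figures. Libraries held 31774994 to 73149117 counts in genes, and each member had at least 246 counts in every library (LPIN1 had the fewest); the errors given are those between libraries.

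The members and lists were chosen with earlier results of these data known, and the promoter motifs after seeing them, CACNCCAC after a first search for its longer form. Any member could be named, with values in every library for those with the smallest adjusted p and the highest and lowest fold change; of the other pathway genes up to 4 per comparison by adjusted p. Results were recomputed with size factors of DESeq2 (1.42.0) and its test, with total library size, with TMM factors of coding genes, with no filter or with 50 counts in 3 libraries, with only the groups compared, with replicate number as block (also within line), with each library's GC trend removed, and without each library in turn. Simulated data with 200 changed genes among 22003 were used to check the fit.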

Additional observations from a re-analysis of the deposited data

How the results depend on the processing

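The fall of members in the mutant line held under each alternative: leaving out 1 library left 22 to 24 members lower and 0 to 1 higher between the inputs and 22 to 26 lower and 1 higher between the precipitates. With total library size none was called higher in either (0 and 0). With that scaling the enrichments turned: 22 members higher and 3 lower in the mutant line, 18 higher and 4 lower in the WT line. Log2 values that changed sign in the mutant enrichment were MVK 0.10, MVD 0.57, FDFT1 0.84, SQLE 1.22, LSS 0.23, CYP51A1 1.11, MSMO1 1.21, NSDHL 1.0, EBP 0.26, SC5D 1.10, ACLY 0.47, ACSS2 0.95, FASN 0.12, SCD 0.38, ELOVL6 0.47, FADS1 0.70, FADS2 0.34, SREBF1 1.18 and INSIG1 1.26. In the WT enrichment they were MVK 0.01, MVD 0.19, FDFT1 0.40, SQLE 0.99, LSS 0.02, CYP51A1 0.67, MSMO1 0.59, NSDHL 0.53, HSD17B7 0.74, EBP 0.23, SC5D 0.55, ACLY 0.08, ACSS2 0.26, FASN 0.03, SCD 0.39, ELOVL6 0.61, FADS1 0.64, FADS2 0.24, LPIN1 0.76, SREBF1 0.74, INSIG1 0.99 and STARD4 1.03. By construction the scaling moves all genes of a comparison together. Of all 22984 genes, 17715 were then called in the mutant enrichment and 16638 in the WT enrichment, in either direction. With the GC trend removed, alone or with the replicate block, the values MVD 0.52, IDI1 −0.14, FASN 0.07, SREBF1 0.99 and STARD4 −0.64 changed sign in the mutant enrichment and MVD 0.14, IDI1 −0.29 and SREBF1 0.57 in the WT enrichment, 5 members were higher in the WT enrichment, and the sterol minus fatty acid median was 0.08 in the mutant enrichment (0.64 before), 0.05 in the WT enrichment (0.23 before), 0.09 in the difference of enrichments (0.36 before; 0.08 with the block) and −0.34 between the inputs (−0.39 before). Leaving out 1 library, that median difference ran from 0.59 to 0.69, 0.15 to 0.35, 0.24 to 0.39, −0.12 to −0.05 (precipitates) and −0.42 to −0.37 (inputs), and the enrichments had 4 to 5 members higher and 15 to 17 lower in the mutant line and 3 to 4 higher and 17 to 22 lower in the WT line. In the difference of enrichments DESeq2 called 1 member higher (HMGCS1), as did the replicate block with the GC trend removed (ACSS2, 0.54, adjusted p = 0.0450). Over all genes that comparison made 15 calls in edgeR, 434 in DESeq2, 185 without a filter, 1 with the 50-count filter, 60 with the GC trend removed, 241 with that and the replicate block, and 105 each with total library size and with the block within line. Without 1 library it made 0 to 75, with 0 where the first WT or the third mutant RIP library was left out and 75 where the third WT input was. The cause was not tested. Deviations of libraries with the same replicate number had r of −0.52 to 0.61. Between the precipitates all 3 values were positive (0.36, 0.61 and 0.04), and every other pair of groups had a negative value. The numbers were not taken to pair the samples, but whether precipitates with the same number were processed together was not tested. The replicate block alone left the counts of called members within 1.5 times of those given. It made 23 calls over all genes in the difference of enrichments. Genes changed by 0.5 log2 units were rarely found in simulated data (8% to 11.0% between 2 groups). Only 200 of 22003 genes were changed there, while the real comparisons of 2 groups called 4017 to 13102 genes. The adjusted p was thus stricter in the simulated data, and the shares found do not carry over to those comparisons. Small changes of a single member could still be missed at this number of libraries.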

Other observations

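Among the other pathway genes, some of those called higher in mutant input, and HSD17B12, called lower, are named here after their values were seen. SCD5, a desaturase paralog of SCD, had 1.07, 0.416 and 0.634 CPM in mutant inputs, against 0.338, 0.0523 and 0.0429 CPM in WT inputs, and 0.720, 0.620 and 0.550 CPM in mutant RIP, against 0.298, 0.113 and 0.168 CPM in WT RIP. It rose by 2.22 ± 0.60 (adjusted p = 0.0118) between the inputs and by 1.72 ± 0.55 (adjusted p = 0.0276) between the precipitates, where SCD fell, but rests on 2 to 51 counts per library. MLX, which encodes a partner of the glucose-responsive factor MLXIPL, was higher in both (0.43 ± 0.12 in the inputs and 0.41 ± 0.12 in the precipitates). HSD17B12, an enzyme of fatty acid elongation, had 22.1, 23.3 and 25.8 CPM in mutant inputs, against 37.9, 41.2 and 30.9 CPM in WT inputs (−0.63 ± 0.13, adjusted p = 0.00122), and was at −0.34 ± 0.13 between the precipitates (adjusted p = 0.0569). Whether these genes differ from the members was not tested.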
